A study of Mus musculus with 4 samples.

Results

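Genes that make, sense, take up, move and export cholesterol were followed in nascent transcription of mouse liver with and without histone deacetylase 3. The genes were chosen by name for their roles in cholesterol metabolism, by a rule that uses no measured value, although earlier results of these data were known when the list was made. Of 31 named genes, 29 were listed in the deposited table under their own symbol and *Msmo1* under its older symbol *Sc4mol*, so that 30 of 20642 listed symbols were measured. All 30 were among the 12705 active genes. *Tm7sf2* was not analysed here.

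The libraries came from precision nuclear run-on sequencing (PRO-seq), which maps the 3′ ends of RNA still held by engaged RNA polymerase and so reads transcription before splicing or decay act on the RNA. Whole livers of C57BL/6 mice were taken at postnatal day 14, and each of the 4 libraries was made from 20000000 nuclei pooled from several mice. The WT group was *Hdac3* +/+ and the *Hdac3* KO group carried F/F or F/- alleles, and both groups carried Cre driven by the albumin promoter (Alb-Cre). Each group had 2 libraries, called WT1, WT2, KO1 and KO2 here. The albumin promoter is active in hepatocytes. Liver cells in which it had never been active kept their *Hdac3* alleles, or kept 1 of them where a null allele was present. Which cells had lost *Hdac3* was not measured here. Differences between single mice cannot be seen in pools. In whole liver, fewer cells of a type and less RNA made per cell cannot be told apart.

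Mammalian cells build cholesterol from acetyl-CoA through mevalonate, isoprenoids, squalene and a chain of sterol intermediates. The pathway is held in check by its product. When the membrane of the endoplasmic reticulum is rich in sterols, INSIG proteins retain SCAP and its cargo SREBP2. When sterols are scarce, SCAP escorts SREBP2 to the Golgi, where it is cleaved to release a transcription factor for synthesis genes. The liver also disposes of cholesterol, storing it as esters and secreting it into bile through the ABCG5/ABCG8 transporter. HDAC3 removes acetyl groups from histones within nuclear co-repressor complexes.

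For every gene, the table gave the reads of the gene body, from 1 kb downstream of the transcription start site (TSS) to the end of the gene, and those of the promoter-proximal region, the 50 bp window with most reads within 500 bp of the TSS. Values below are the normalized reads of the authors, and log2 fold changes (log2FC) are KO over WT on the log2(value + 1) scale with their SE. A gene was called when its adjusted p from limma was under 0.05 and its log2FC was over 0.6 or under -0.6.

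Reads on genes ranged from 16628518 (KO2) to 26190040 (WT2). The promoter-proximal share of those reads was 10.3% in WT1 and 9.38% in WT2, against 13.6% in KO1 and 17% in KO2, so the shallowest library also had the highest share. What depth and this share contribute to the promoter-proximal results was not tested. *Hdac3* itself had 665, 648, 609 and 582 gene body reads in WT1, WT2, KO1 and KO2. The deletion was thus not visible in gene body reads, and which library is WT or KO is known from the labels alone. Hepatocyte markers were high in every library, with summed gene body reads of 302858 and 309191 in WT and of 145454 and 140169 in KO, and no marker of that list was at 0. Of its 8 genes, 6 were called down and none up in gene bodies, with a median log2FC of -1.41. Over the same libraries, 6 of 6 stellate cell markers and 5 of 6 endothelial markers were called up. Their summed reads went from 8751 and 9818 in WT to 18255 and 16815 in KO for stellate cells, and from 49339 and 53369 to 92920 and 83004 for endothelial cells. None of 6 Kupffer cell and macrophage markers was called in gene bodies by limma, edgeR or DESeq2, nor at an unadjusted p with the same fold threshold. Of 5 leukocyte markers 2 were called up and 1 down, and of 3 active cholangiocyte markers 1 was called down. Summed reads over the 4 libraries were 16039 to 21110 for Kupffer cells and macrophages, 4473 to 6724 for leukocytes and 152 to 208 for the 5 cholangiocyte markers, with none of these markers at 0. All 5 erythroid markers were called down in gene bodies, with sums of 872 and 1093 in WT and of 385 and 326 in KO. The part of these shifts in the results below was not tested.

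In gene bodies, 8 of the 19 measured synthesis enzymes rose in the KO livers and both genes of the biliary exporter fell. The rises were led by *Sqle* at a log2FC of 2.08 and *Idi1* at 1.72. *Abcg5* and *Abcg8* fell by 2.32 and 2.01 on the log2 scale, and *Ebp*, *Acat2* and *Insig2* fell by 0.67 to 0.75. The 8 called rises were 26.7% of the 30 members, beside 10.4% of all active genes, and the 5 called falls were 16.7%, beside 11.4% of all active genes. The other 17 members were not called, with log2FC from -0.57 to 0.56. The median over the 30 members was 0.03, against -0.09 over all active genes. *Idi1* and *Sqle* had WT gene body densities under the cutoff of 4 normalized reads per kb and counted as active only through their KO libraries. Without them, 6 of 28 members were called up and 5 down. edgeR and DESeq2 on the recovered reads called the same numbers as limma, 8 up and 5 down. When inactive genes were kept in the limma fit, 3 members were called down and 0 up (*Insig2*, *Abcg5* and *Abcg8*), and 7 were up at an unadjusted p under 0.05. In that fit 406 of all 20642 genes were called up and 591 down. In the main fit 1324 of the 12705 active genes were called up and 1449 down.

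**Figure D1:**
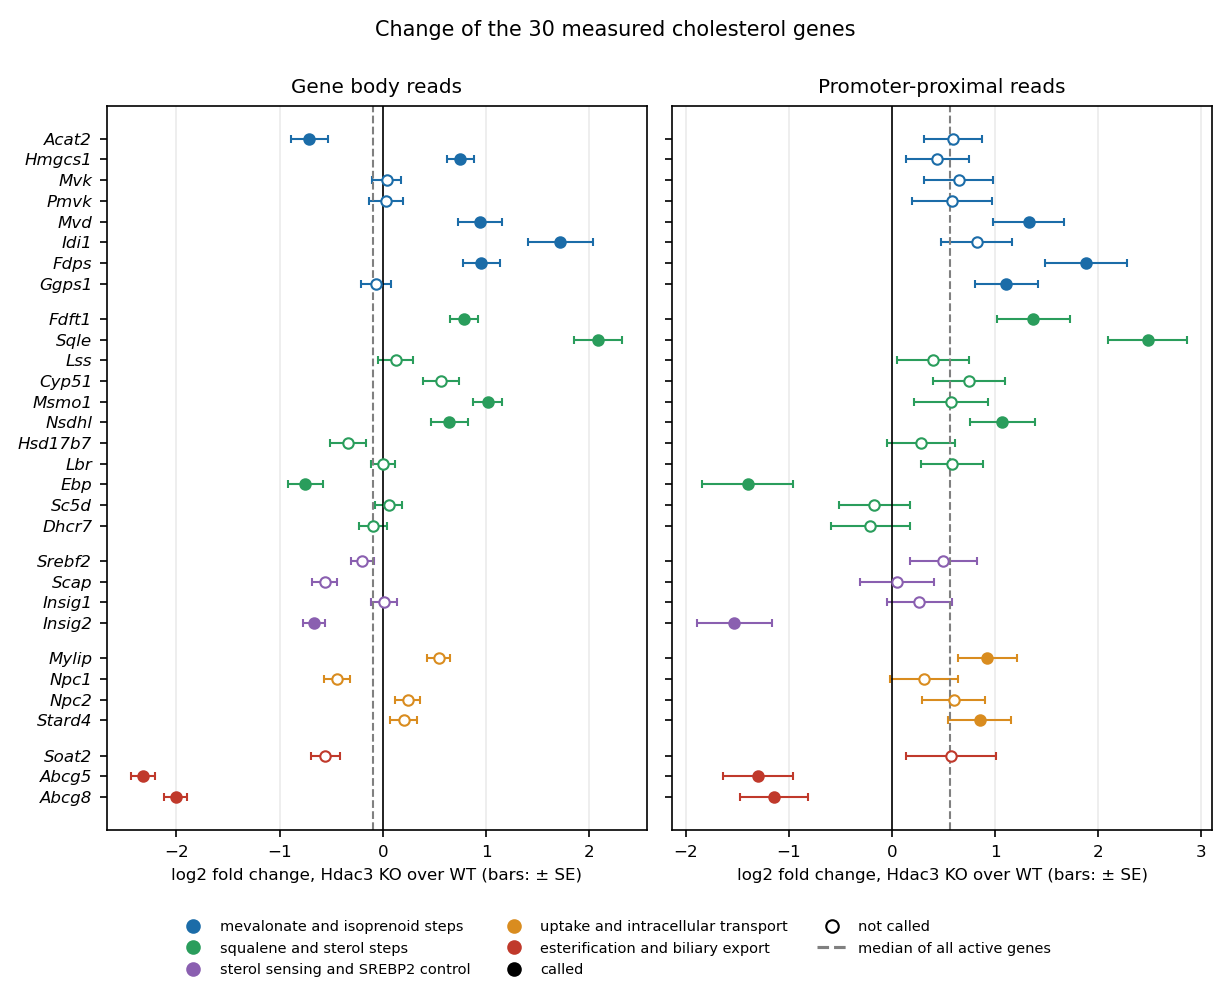
Log2FC of the 30 measured members in gene bodies (left) and promoter-proximal regions (right), KO over WT, with bars of ± SE (limma, 2 libraries per group), coloured by role. Filled points were called, and the dashed lines mark the medians of all active genes, -0.09 in gene bodies and 0.56 in promoter-proximal regions. Synthesis enzymes spread from -0.75 to 2.08 in gene bodies, and *Abcg5* and *Abcg8* stand apart at the low end.

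The first enzymes of the pathway did not all move alike. ACAT2 (acetyl-CoA acetyltransferase) joins acetyl-CoA units, HMGCS1 makes HMG-CoA, and MVK, PMVK and MVD carry mevalonate on to isopentenyl diphosphate. IDI1, FDPS and GGPS1 then isomerize and lengthen the isoprenoid chain. Of these 8 genes, 4 were called up in gene bodies, 1 down and 3 neither.

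*Idi1* (chr13:8885606-8892396) had 16.1 and 21 gene body reads in WT1 and WT2 and 61.5 and 63.8 in KO1 and KO2. Its log2FC was 1.72 ± 0.32 (limma adjusted p = 0.000117), the steepest rise of the group on the lowest counts of all members. *Mvd* (chr8:122433596-122443422) had 97.5 and 116 reads in WT and 165 and 254 in KO, with a log2FC of 0.94 ± 0.21 (limma adjusted p = 0.00101). *Fdps* (chr3:89093588-89101967) had 180 and 234 reads in WT and 333 and 477 in KO, with a log2FC of 0.95 ± 0.18 (limma adjusted p = 0.000179). In each of these genes both KO libraries lay above both WT libraries. KO2 was the higher KO library, and without it the *Mvd* change was 0.63 (limma adjusted p = 0.11) and the *Fdps* change 0.70 (limma adjusted p = 0.061).

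*Hmgcs1* (chr13:119690351-119708260), which commits acetyl units to the pathway, carried far more reads. It had 1196 and 958 in WT and 1638 and 1980 in KO, and its log2FC was 0.75 ± 0.13 (limma adjusted p = 5.35e-05). Without WT2, the lower WT library, the change was 0.59 and no longer passed the fold threshold.

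*Mvk*, *Pmvk* and *Ggps1* had overlapping groups. *Mvk* had 451 and 459 reads in WT and 452 and 481 in KO. Its log2FC was 0.04 ± 0.14, and that of *Pmvk* was 0.03 ± 0.16. *Ggps1*, whose product feeds protein prenylation rather than sterols, stood at -0.07 ± 0.15, and at 0.01 when libraries were scaled by median of ratios or TMM.

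*Acat2* (chr17:12943042-12960725) was the member of this group that fell, from 225 and 264 reads in WT to 142 and 155 in KO. Its log2FC was -0.71 ± 0.18 (limma adjusted p = 0.00260). The call was lost without WT2 (-0.60) or without KO1 (-0.65, limma adjusted p = 0.063). Reads of *Acat2* are uncertain, because the paralogue *Acat3* lies beside it on chromosome 17 and reads of low mapping quality had been removed. *Acat3*, singled out after its values were seen, had 2119 and 2460 gene body reads in WT and 1050 and 991 in KO.

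The later part of the pathway, from squalene on, held the largest rise of all members. FDFT1 condenses farnesyl units to squalene, and SQLE adds the oxygen that lets LSS close the ring to lanosterol. CYP51, MSMO1, NSDHL and HSD17B7 strip methyl groups from the sterol nucleus, LBR reduces a ring double bond, and EBP, SC5D and DHCR7 finish the molecule. Of these 11 genes, 4 were called up in gene bodies, 1 down and 6 neither.

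*Sqle* (chr15:59315092-59331193), which encodes a rate-controlling step, had 49.3 and 65 gene body reads in WT1 and WT2. In KO1 and KO2 it had 192 and 308, so the KO libraries differed from each other but both lay well above WT. The log2FC was 2.08 ± 0.23 (limma adjusted p = 1.63e-07), a 4.24-fold rise on the log2(value + 1) scale. The lowest value of that change on leaving out a library was 1.74.

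*Msmo1* (chr8:64718123-64733578), a sterol C4-methyl oxidase, had 405 and 410 reads in WT and 744 and 914 in KO. Its log2FC was 1.01 ± 0.14 (limma adjusted p = 2.67e-06), and the call held with each library left out. *Fdft1* (chr14:63145150-63181687) had 1070 and 799 reads in WT and 1464 and 1728 in KO, with a log2FC of 0.78 ± 0.14 (limma adjusted p = 5.99e-05). Without WT2 that change was 0.57, under the fold threshold. *Fdft1* overlaps *Ctsb* over 774 bp in RefSeq.

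*Nsdhl* (chrX:72918521-72958528) had 163 and 169 reads in WT and 231 and 292 in KO. Its log2FC of 0.64 ± 0.18 (limma adjusted p = 0.00552) was the smallest called rise, and without KO2 it was 0.48 (limma adjusted p = 0.154). *Cyp51* (chr5:4080674-4104697), just inside the adjusted p but not the fold threshold, had 189 and 217 reads in WT and 259 and 348 in KO (log2FC 0.56 ± 0.18, limma adjusted p = 0.0134). It passed the fold threshold when libraries were scaled by median of ratios (0.65). In *Fdft1*, *Sqle*, *Msmo1*, *Nsdhl* and *Cyp51* alike, both KO libraries lay above both WT libraries.

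*Ebp* (chrX:8185329-8193512), the sterol isomerase, was the sterol-step gene that was called down. It had 281 and 322 gene body reads in WT and 187 and 170 in KO, with a log2FC of -0.75 ± 0.17 (limma adjusted p = 0.000934). The call held with each library left out.

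The other sterol enzymes were not called. *Lss* had 318 and 411 reads in WT and 331 and 468 in KO, *Sc5d* 1056 and 868 against 918 and 1076, and *Dhcr7* 548 and 498 against 477 and 501. All these groups overlapped, as did those of *Lbr* (log2FC 0.00 ± 0.12). *Hsd17b7* had 250 and 340 reads in WT and 225 and 237 in KO, with a log2FC of -0.34 ± 0.17 (limma adjusted p = 0.131). Over all 19 synthesis genes, 8 were called up (42.1%, beside 10.4% of all active genes) and 2 down (10.5%, beside 11.4%). Both KO libraries lay above both WT libraries in 9 of the 19 (47.4%) and below them in 3 (15.8%). The share of all active genes with KO above WT in that way was 27.6%, and with KO below WT 42.8%. The median log2FC of the 19 genes was 0.12. *Idi1* and *Sqle*, which are in both counts of rises, counted as active only through their KO libraries.

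**Figure D2:**
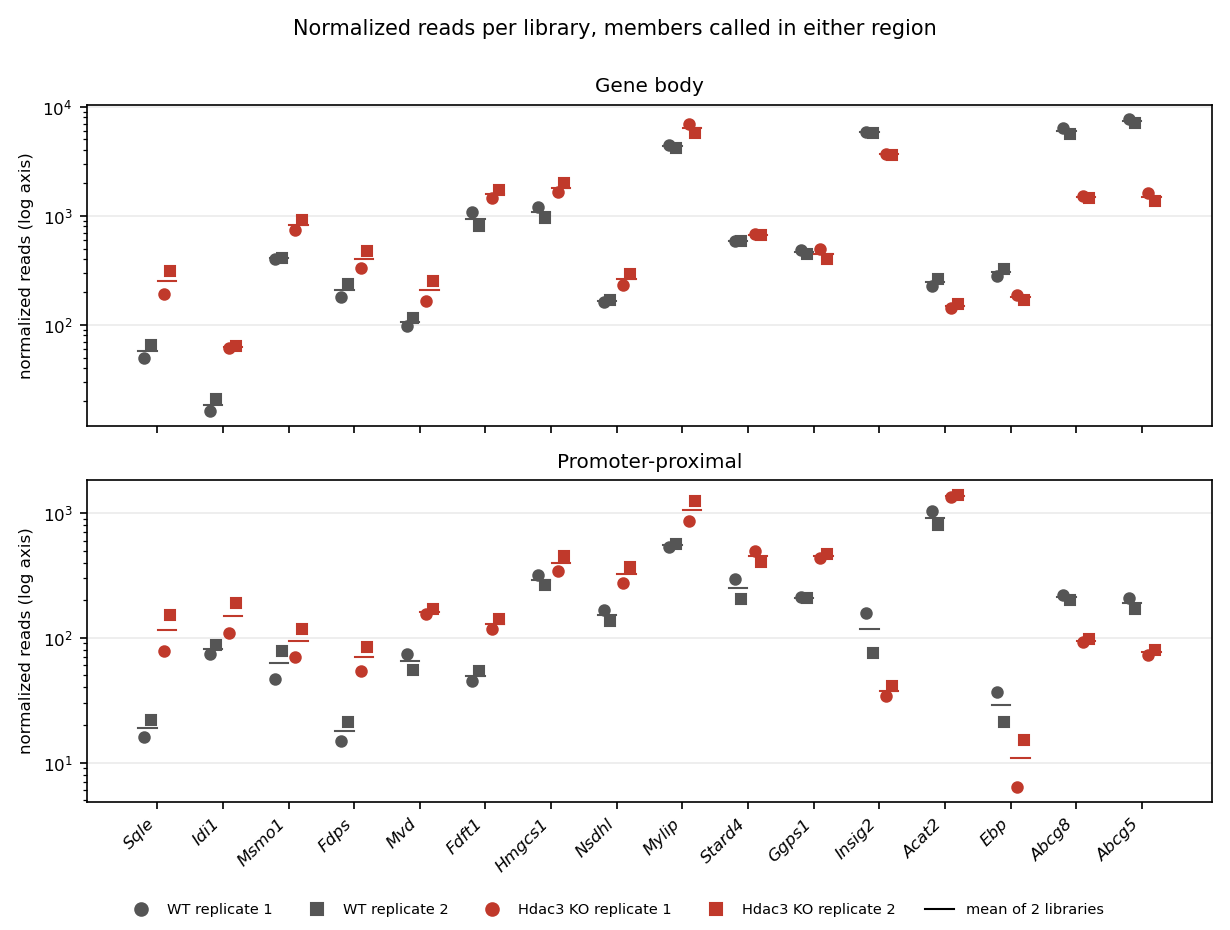
Normalized reads per library (log axes) in gene bodies (top) and promoter-proximal regions (bottom) of the 16 members called in either region, ordered by gene body log2FC. Grey marks are WT and red marks KO libraries, circles replicate 1, squares replicate 2, and short lines the means of 2 libraries. In gene bodies the KO libraries of *Sqle*, at 192 and 308, lie above its WT libraries, at 49.3 and 65, and those of *Abcg5*, at 1617 and 1353, lie below its WT libraries, at 7672 and 7133.

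Upstream windows of 250 bases before the start are shown for 4 called synthesis genes, 3 that rose and 1 that fell. *Mvd* and *Nsdhl*, called up, and *Acat2*, called down, also had windows, which are not printed. These windows bear on the report because synthesis genes are textbook targets of SREBP2, which acts with the CCAAT-binding factor NF-Y. Sequences come from RefSeq (GRCm38.p6) and are given in the direction of transcription. Capitals mark CCAAT boxes on either strand (CCAAT or ATTGG) and, in *Hmgcs1*, a sterol regulatory element (TCACNCCAC on either strand) at position -137 from the start.
*Hmgcs1*, chr13:119690101-119690350, + strand: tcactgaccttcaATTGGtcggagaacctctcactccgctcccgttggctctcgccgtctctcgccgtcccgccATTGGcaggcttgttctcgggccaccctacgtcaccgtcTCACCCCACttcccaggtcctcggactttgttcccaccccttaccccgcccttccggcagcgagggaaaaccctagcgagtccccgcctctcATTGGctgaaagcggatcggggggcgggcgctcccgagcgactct
*Idi1*, chr13:8885356-8885605, + strand: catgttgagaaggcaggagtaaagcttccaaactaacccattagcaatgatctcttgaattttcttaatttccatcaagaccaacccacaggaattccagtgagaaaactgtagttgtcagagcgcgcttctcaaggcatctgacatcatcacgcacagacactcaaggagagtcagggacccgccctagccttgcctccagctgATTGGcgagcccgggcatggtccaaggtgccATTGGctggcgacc
*Msmo1*, chr8:64733579-64733828, - strand: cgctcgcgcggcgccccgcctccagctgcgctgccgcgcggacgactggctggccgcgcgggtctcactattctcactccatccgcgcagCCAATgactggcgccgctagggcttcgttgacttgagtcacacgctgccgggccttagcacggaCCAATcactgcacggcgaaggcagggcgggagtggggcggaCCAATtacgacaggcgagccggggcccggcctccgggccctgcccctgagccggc
*Ebp*, chrX:8193513-8193762, - strand: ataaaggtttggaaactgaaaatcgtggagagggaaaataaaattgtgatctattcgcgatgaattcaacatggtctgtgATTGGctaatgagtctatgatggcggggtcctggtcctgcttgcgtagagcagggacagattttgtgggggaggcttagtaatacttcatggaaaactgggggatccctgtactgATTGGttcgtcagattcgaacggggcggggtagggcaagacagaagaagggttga

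Upstream windows were found for 24 members, and not for *Fdps*, *Fdft1*, *Sqle*, *Npc1*, *Stard4* and *Soat2*. The element TCACNCCAC was in 1 of the 24, *Hmgcs1*, and in 1.05% of all 32851 windows of the same length. A CCAAT box was in 19 of the 24 windows (79.2%), against 33.8% of all windows and 35.2% of the 11590 windows of active genes. The GC box GGGCGG, searched on both strands, was in 18 of the 24 (75.0%), against 32.7% of all windows and 56.1% of those of active genes. CCAAT boxes stood before genes that rose and before *Ebp*, *Insig2* and *Abcg8*, which fell. The windows of *Acat2* and *Abcg5*, which also fell, held none. These matches are letters in a window and not sites of binding.

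Of 4 genes that sense sterols, 1 was called down and 0 up in gene bodies, by limma, edgeR and DESeq2 alike. *Insig2* (chr1:121304353-121332662) encodes an endoplasmic reticulum protein that retains SCAP, and it is the liver isoform known to respond to feeding. It had 5851 and 5754 gene body reads in WT and 3656 and 3638 in KO, a clear gap between tight pairs of libraries. The log2FC was -0.67 ± 0.11 (limma adjusted p = 1.67e-05). It was -0.59, under the fold threshold, when libraries were scaled by median of ratios or TMM. *Insig1*, itself a target of SREBP2, had 1106 and 934 reads in WT and 989 and 1057 in KO, and its groups overlapped (log2FC 0.01 ± 0.12).

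*Scap*, the escort, had 3675 and 2836 reads in WT and 2065 and 2303 in KO. Its log2FC of -0.57 ± 0.12 (limma adjusted p = 0.000681) lay just under the fold threshold, and was -0.75 without WT2 and -0.64 without KO2. *Srebf2* (chr15:82147269-82205379), which encodes SREBP2, had 2571 and 2740 reads in WT and 2227 and 2403 in KO. Its log2FC was -0.20 ± 0.11 (limma adjusted p = 0.159), with both KO libraries below both WT libraries. The gene for the regulator was thus not called.

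Uptake and transport within the cell were covered by 4 genes. MYLIP is a ubiquitin ligase that directs lipoprotein receptors to degradation, NPC1 and NPC2 move cholesterol out of late endosomes, and STARD4 carries sterol between membranes. None of these 4 genes was called in gene bodies by limma, edgeR or DESeq2 with all libraries and the deposited scaling. The same held at an unadjusted p with the same fold threshold. *Mylip* (chr13:45389742-45411940) had 4483 and 4206 reads in WT and 6908 and 5763 in KO, with a log2FC of 0.54 ± 0.11 (limma adjusted p = 0.000480). Its change was 0.62 when libraries were scaled by median of ratios, and it was then called up, as it was with TMM. *Npc1* had 6987 and 5098 reads in WT and 4391 and 4398 in KO, with a log2FC of -0.44 ± 0.12 (limma adjusted p = 0.00670). WT1 was the higher WT library, and the change was -0.67 without WT2 and -0.21 without WT1. *Npc2* stood at 0.24 ± 0.12 and *Stard4* at 0.20 ± 0.13, and neither passed the adjusted p.

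The genes for disposal of cholesterol all had lower KO than WT values in gene bodies. *Abcg5* and *Abcg8* encode the partners of one transporter that secretes sterols into bile, and their starts lie head to head on chromosome 17. *Abcg5* (chr17:84658174-84683011) had 7672 and 7133 gene body reads in WT and 1617 and 1353 in KO, a log2FC of -2.32 ± 0.11 (limma adjusted p = 1.11e-12) or a 5.0-fold fall. *Abcg8* (chr17:84676302-84700333) had 6360 and 5618 reads in WT and 1517 and 1455 in KO, a log2FC of -2.01 ± 0.11 (limma adjusted p = 4.68e-12) or a 4.02-fold fall. Every KO library lay far below every WT library. The changes ranged from -2.45 to -2.19 for *Abcg5* and from -2.10 to -1.92 for *Abcg8* with each library left out. Hepatocyte markers were lower in the same KO libraries, with a median log2FC of -1.41, and their part in the fall of the exporter genes was not tested. *Soat2*, which esterifies cholesterol, had 717 and 581 reads in WT and 431 and 445 in KO. Its log2FC was -0.56 ± 0.14 (limma adjusted p = 0.00276), just under the fold threshold.

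The stretch of 109 bases between the starts of *Abcg5* (to the left, on the - strand) and *Abcg8* (to the right, on the + strand) is shown because both genes are transcribed away from it. RefSeq also lists a start of *Abcg8* further upstream, within *Abcg5*, but the length of the deposited gene body matches the start used here to within 10 bp. None of the 3 motifs was in it.
*Abcg5*-*Abcg8*, chr17:84683012-84683120, + strand: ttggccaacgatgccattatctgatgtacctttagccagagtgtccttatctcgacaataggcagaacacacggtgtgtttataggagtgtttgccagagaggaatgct

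Levels were compared between genes per kb of gene body. In WT livers *Abcg8*, with a mean of 370 normalized reads per kb, and *Abcg5*, with 313, were the most densely transcribed members, followed by *Insig2* at 223 and *Mylip* at 205. In KO livers *Mylip* came first at 299, then *Insig1* at 164 and *Insig2* at 140, while *Abcg8* was 7th at 91.7 and *Abcg5* 9th at 62.7. The densest synthesis genes were *Sc5d*, at 105 in WT and 109 in KO, and *Hmgcs1*, at 64.8 and 109. *Idi1*, *Sqle* and *Nsdhl* were the lowest 3 in WT, at 3.2, 3.79 and 4.26. *Sqle* rose to 16.6 and *Idi1* to 10.8 in KO, so that even after their rise both stayed in the lower part of the range.

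**Figure D3:**
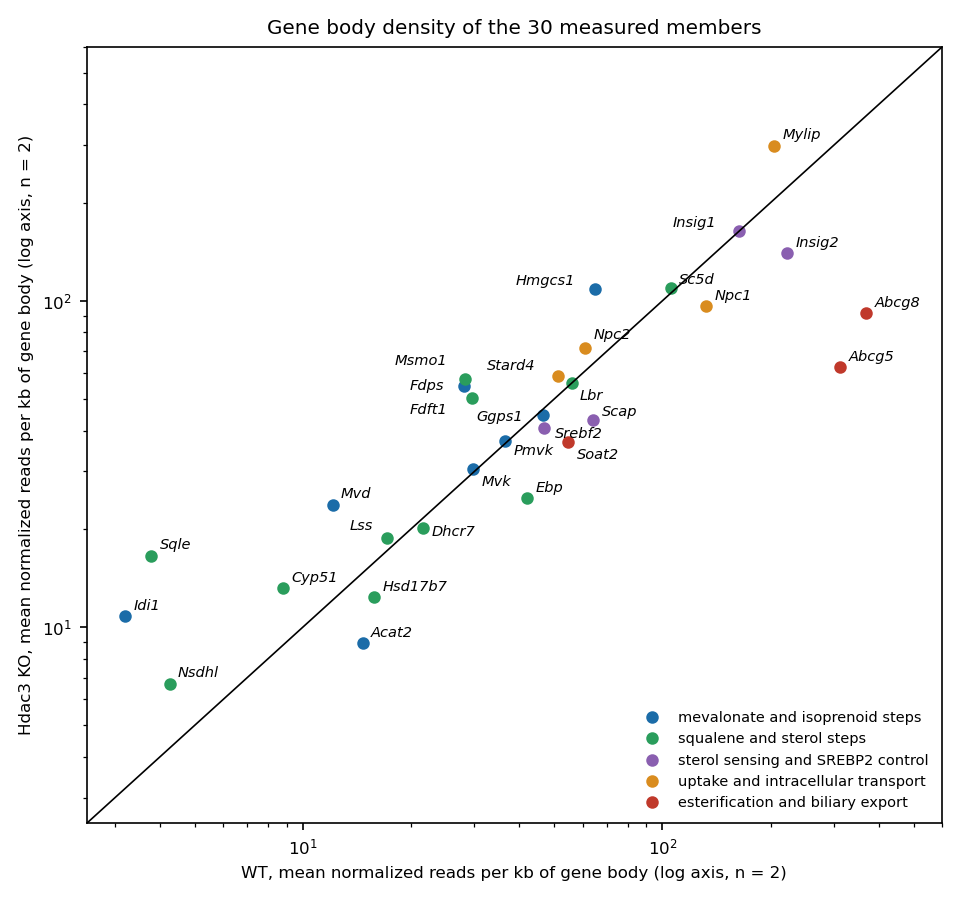
Mean normalized reads per kb of gene body in WT (x) and KO (y) for the 30 measured members, both on log axes, coloured by role. The line marks equal density. *Abcg8* and *Abcg5* lie furthest below it, at 370 and 313 in WT against 91.7 and 62.7 in KO, and *Sqle* and *Idi1* furthest above it at the low end.

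Promoter-proximal reads were higher in KO than in WT libraries over most genes, with a median log2FC of 0.56 over active genes. In the members, 8 were called up and 4 down, and 3 up and 4 down when each region was scaled on its own by median of ratios or TMM. Under those scalings 4.99% (median of ratios) or 5.02% (TMM) of all active genes were called up, and 7.41% or 7.47% down. The rises were 26.7% of the members, beside 25.8% of all active genes called up, and so no more frequent than elsewhere. The falls were 13.3%, beside 2.2% of all active genes called down in the deposited scaling. The member median was 0.58. Both KO libraries lay above both WT libraries in 18 members (60.0%), beside 61.9% of all active genes, and below them in 4 (13.3%), beside 6.72%.

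*Sqle* and *Fdps* rose well beyond the shift. *Sqle* had 16.1 and 22 promoter-proximal reads in WT and 78.5 and 153 in KO, with a log2FC of 2.48 ± 0.38 (limma adjusted p = 3.55e-08), 1.92 above the median. *Fdps* had 14.9 and 21 reads in WT and 54.1 and 85.0 in KO, with a log2FC of 1.88 ± 0.40 (limma adjusted p = 9.16e-05), 1.32 above the median. *Fdft1* (44.8 and 54 against 118 and 141, log2FC 1.37 ± 0.36) and *Mvd* (74.6 and 55 against 156 and 169, log2FC 1.33 ± 0.35) followed. These 4 genes were also called up in gene bodies, as was *Nsdhl*.

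*Ggps1*, *Nsdhl*, *Mylip* and *Stard4* were called at 1.11, 1.07, 0.93 and 0.85, which is 0.55, 0.51, 0.37 and 0.29 above the median. *Ggps1* had 211 and 208 promoter-proximal reads in WT and 437 and 471 in KO, although its gene body groups overlapped. *Nsdhl* had 166 and 137 reads in WT and 275 and 369 in KO. *Mylip* had 537 and 562 against 870 and 1254, and *Stard4* 298 and 204 against 492 and 404. All 4 of these calls, and that of *Mvd*, were lost when each region was scaled on its own by median of ratios or TMM, which left *Sqle*, *Fdps* and *Fdft1*. The *Stard4* call was also lost with the replicate number as a block (limma adjusted p = 0.082).

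The 4 called falls ran against the shift. *Insig2* had 157 and 76 promoter-proximal reads in WT and 34.0 and 41.0 in KO, with a log2FC of -1.53 ± 0.37 (limma adjusted p = 0.000663). *Ebp* had 36.7 and 21 in WT and 6.36 and 15.2 in KO, with a log2FC of -1.40 ± 0.44 (limma adjusted p = 0.0108). WT1 was the higher WT library in both. *Abcg5* had 210 and 169 reads in WT and 72.1 and 80.5 in KO (log2FC -1.29 ± 0.34, limma adjusted p = 0.00204), and *Abcg8* 220 and 201 against 92.3 and 97.2 (log2FC -1.14 ± 0.33, limma adjusted p = 0.00573). All 4 were called down in gene bodies too, and kept their promoter-proximal calls when each region was scaled on its own. DESeq2 did not call *Ebp* (adjusted p = 0.113). Leaving out KO2 left 1 member called up and 1 down, and leaving out WT2 left 2 up and 2 down. Leaving out WT1 left 2 up and 0 down, with 8 up and 2 down at an unadjusted p under 0.05. Over all active genes, the calls without KO2 were 319 up and 83 down, against 3282 and 280 with all libraries.

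The remaining 18 members were not called in promoter-proximal regions, with log2FC from -0.21 to 0.82. *Idi1*, at 0.82 ± 0.34 (74.6 and 88 reads in WT, 108 and 191 in KO), and *Msmo1*, at 0.57 ± 0.36 (47.0 and 78 against 70.0 and 117), were called up in gene bodies alone. So was *Hmgcs1*, whose promoter-proximal change of 0.44 ± 0.30 became -0.13 with each region scaled on its own. *Lss*, *Hsd17b7*, *Srebf2*, *Scap*, *Insig1* and *Npc1* also changed sign under that scaling. *Acat2* had 1029 and 802 promoter-proximal reads in WT, more than any other member, and 1341 and 1397 in KO. *Sc5d* and *Dhcr7*, at -0.17 ± 0.35 and -0.21 ± 0.38, were the uncalled members whose values lay below 0, whereas *Soat2* (0.58 ± 0.44), *Mvk* (0.65 ± 0.33), *Pmvk* (0.58 ± 0.39), *Lbr* (0.58 ± 0.30), *Cyp51* (0.74 ± 0.35) and *Npc2* (0.60 ± 0.31) lay near the shift.

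**Figure D4:**
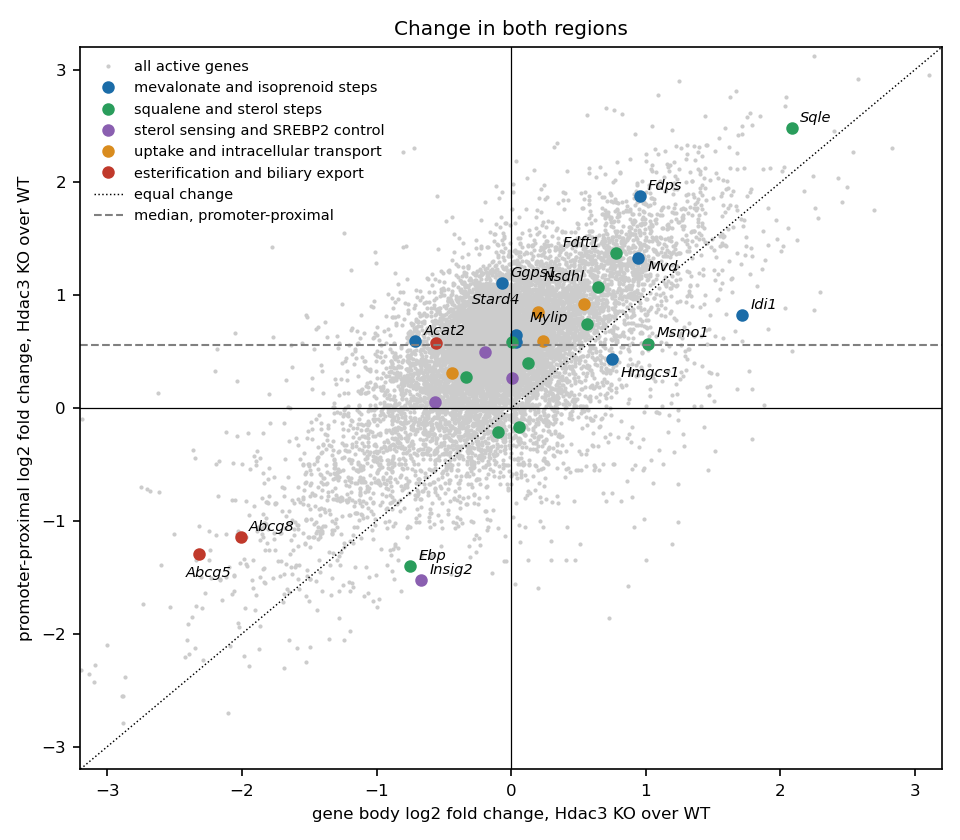
Promoter-proximal against gene body log2FC (KO over WT) of the 30 measured members, coloured by role, over all active genes in grey, of which 15 of 12705 lie outside the axes. The dotted line marks equal change and the dashed line the promoter-proximal median of 0.56. *Sqle* and *Fdps* lie above the equal-change line, *Idi1*, *Msmo1* and *Hmgcs1* below it, and *Abcg5* and *Abcg8* fell further in gene bodies than at their promoters. Lying above that line was common, since the pausing index rose by 0.61 (log2) at the median of all active genes. *Sqle*, at 0.40, lay under that median, and *Fdps* (0.93), *Abcg5* (1.03) and *Abcg8* (0.86) over it. The pausing index was called for none of these genes.

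The pausing index, promoter-proximal density over gene body density, rose by 0.61 on the log2 scale at the median of all active genes. It was called up for *Acat2* and *Ggps1*, which is 6.67% of the members, beside 11.2% of all active genes called up, and called down for no member, beside 0.543% of all active genes called down. At an unadjusted p under 0.05 with the same fold threshold, 6 members were up and 1, *Idi1*, down. *Acat2* had indices of 1527 and 1014 in WT and 3148 and 3010 in KO, with a log2 difference of 1.30 ± 0.45 (limma adjusted p = 0.0415). *Ggps1* had 86.2 and 93.9 in WT and 177 and 236 in KO, with 1.18 ± 0.38 (limma adjusted p = 0.0284). Both calls were lost without WT1, WT2 or KO2, with the replicate block, and with each region scaled on its own.

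*Abcg5* had indices of 13.0 and 11.2 in WT and 21.1 and 28.2 in KO (1.03 ± 0.43, limma adjusted p = 0.0813), and *Abcg8* 11.2 and 11.6 against 19.7 and 21.7 (0.86 ± 0.42, limma adjusted p = 0.126). For both genes the KO libraries lay above the WT libraries but the difference did not pass the test. *Soat2* (1.14 ± 0.43, limma adjusted p = 0.0587) and *Fdps* (0.93 ± 0.39, limma adjusted p = 0.0875) were the other members with the highest values, and *Idi1* (-0.89 ± 0.42, limma adjusted p = 0.113) and *Insig2* (-0.86 ± 0.45, limma adjusted p = 0.157) those with the lowest. The Cochran-Mantel-Haenszel test, which takes replicate numbers as strata and counts reads, called 11 of the 30 members up, beside 46% of all active genes, and 2 down, beside 0.661%.

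Around the 30 members, 39 further genes of cholesterol handling were active. In gene bodies 1 of them was called up (2.56%, beside 10.4% of all active genes) and 5 down (12.8%, beside 11.4%), with a median log2FC of -0.17. Of 11 genes for SREBP processing and sterol-regulated degradation, 1 was called in gene bodies, *Srebf1*, the lipogenic relative of *Srebf2*, which had 5285 and 6512 reads in WT and 2884 and 3538 in KO (log2FC -0.88, limma adjusted p = 3.58e-06). Its promoter-proximal reads went the other way, from 330 and 228 in WT to 434 and 595 in KO (0.89, limma adjusted p = 0.0191), and its pausing index was called up (1.76, limma adjusted p = 0.00190). Of 11 sterol carriers and uptake genes, 1 was called up and 3 down in gene bodies. *Gramd1b*, a carrier at membrane contact sites, rose from 1978 and 2156 reads to 3722 and 3538 (log2FC 0.81, limma adjusted p = 2.03e-06), whereas its relative *Gramd1c* fell from 1533 and 1343 to 799 and 749 (-0.89, limma adjusted p = 2.69e-06). *Stard5* fell from 2795 and 2136 to 1362 and 1307 (-0.87, limma adjusted p = 4.82e-06). *Scarb1*, the receptor for high-density lipoprotein, fell from 12420 and 9769 to 7220 and 6746 (-0.66, limma adjusted p = 9.92e-05).

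Among 5 genes of cholesterol ester turnover, *Lcat*, which esterifies cholesterol in plasma, was called down, from 929 and 904 to 374 and 422 reads (-1.20, limma adjusted p = 1.35e-07). None of 8 genes of the isoprenoid branches, 2 sterol-sensing nuclear receptors and 2 genes of acetyl-CoA supply was called in gene bodies by limma, edgeR or DESeq2, nor at an unadjusted p with the same fold threshold. In promoter-proximal regions 8 of the 39 genes were called up (20.5%, beside 25.8% of all active genes) and 1 down (2.56%, beside 2.2%). The 8 isoprenoid genes, which draw on farnesyl and geranylgeranyl diphosphate for other products, all had gene body log2FC below 0, from -0.41 to -0.11. Of these 8, *Rabggta* was called up in its promoter-proximal region (0.89, limma adjusted p = 0.0349) and in its pausing index (limma adjusted p = 0.0498).

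The deposited list of 2282 intergenic enhancers, called on reads pooled over all libraries, held no values per library. It named 6 of the 30 members as the closest gene of 7 enhancers. *Insig2* had one at chr1:121348248-121353805, 15668 bp from its TSS, and *Insig1* one at chr5:28030263-28057956, 13456 bp from its TSS. *Lbr* had 2, at 9824 and 17563 bp. *Sc5d* had one at 6041 bp, *Mylip* one at 52296 bp and *Hsd17b7* one at 50296 bp. Neither *Abcg5* and *Abcg8* nor any called synthesis gene was the closest gene of an enhancer on this list. By contacts from the 4DGenome database, however, the list linked 25 members through 66 links, among them *Abcg5*, *Abcg8*, *Sqle*, *Fdft1*, *Fdps*, *Idi1*, *Msmo1*, *Mvd* and *Acat2*. Of the 66 links, 35 were to an enhancer on another chromosome than the gene. The paper proposes that many 4DGenome contacts come from tissues or conditions other than liver. The share of all active genes with such a link was not determined, so 25 of 30 is a description only.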

How the data were processed

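Nuclei of whole mouse livers gave 4 PRO-seq libraries, 2 WT and 2 *Hdac3* KO, grouped and numbered by their labels. According to the labels and the paper's methods, the authors trimmed reads with cutadapt, mapped them to mm10 with Bowtie2, discarded ribosomal reads and those with a mapping quality under 10, and counted the rest per RefSeq transcript with NRSA. The deposited values of WT2 are counts, since the scaling factor of the authors is 1 for this library. Those of the other libraries are deposited as normalized signal, counts multiplied by 1.15 (WT1), 1.06 (KO1) or 1.52 (KO2). Dividing by the factor gave whole reads for 100% of 41640 values per library (tolerance 0.001 reads). Counting error is smallest for WT2 and largest for KO2.

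Each symbol was represented by its transcript with the highest mean promoter-proximal value. A gene counted as active if it had promoter-proximal reads and, on average over the libraries, more than 4 normalized reads per kb of gene body. This cutoff was set on the deposited scale, whereas the paper sets its cutoff of 4 after scaling total reads to 10000000. Scaling the reads on genes in that way puts the cutoff at 10.3 on the deposited scale. That stricter cutoff leaves 11103 active genes and 27 members, without *Idi1*, *Sqle* and *Nsdhl*. The main test was limma 3.58.1 in R 4.3.3 on log2(value + 1), with a mean-variance trend, empirical Bayes moderation and no block, and p-values of all 12705 active genes were adjusted together (Benjamini-Hochberg). The thresholds are those of the paper for promoter-proximal regions. Alternatives were DESeq2 1.42.0, the tool named in the paper, and edgeR 4.0.16, both on the recovered reads, beside other pseudocounts, filters and scalings, the replicate number as a block, and fits without one of the libraries. On simulated counts of the gene bodies of 12705 genes with 200 changed 4-fold, limma recovered 100% of these, and 89.5% in promoter-proximal regions. Genes with low mean counts were not among the 200. Smaller changes, such as those of most called members, were not simulated. With 2 libraries against 2, an exact permutation test of one gene cannot give a two-sided p under 0.33.

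The members, the wider pathway lists and the marker lists were chosen with earlier results of these data known, so counts over them are descriptions. All 31 members are named. Full values are given for members called in any region, and of the wider lists up to 5 called rises and 5 called falls with groups that do not overlap. Gene positions and upstream sequences are from RefSeq (GRCm38.p6). Where several starts were listed, the one nearest the deposited gene body length was used. The length from the start used differed from the deposited one by 3227 bp in *Lss*, 2742 in *Ggps1*, 2585 in *Sc5d* and 1178 in *Insig2*. In *Pmvk*, *Srebf2*, *Hmgcs1* and *Abcg5* it differed by 448, 419, 294 and 148 bp. Whether the windows of these genes belong to the measured starts was not tested. The methods name the coding strand for the promoter-proximal window only, so overlapping genes may share gene body reads. *Lss*, *Mvd* and *Insig1* overlap a long non-coding RNA and *Npc1* overlaps *Rmc1*. Whether same-numbered libraries were prepared together is not given in the sources used here, and their deviations from the group means did not run together (r = 0.0189 in gene bodies and -0.105 in promoter-proximal regions, across genes). Figures were drawn with Python 3.11.15 and matplotlib 3.10.9.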

Additional observations from a re-analysis of the deposited data

How the results depend on the processing

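Gene body calls of the members, 8 up and 5 down, were the same in number with the replicate block, with pseudocounts of 0.1 and 10, and with edgeR and DESeq2. With the other scalings 1530 (median of ratios) or 1522 (TMM) of all active genes were up and 1190 or 1192 down. Of the members 10 were up and 4 down with them. With each library left out, 6 to 9 were up and 4 to 7 down, where the lone library of a group is assumed to vary like the other group. Without the filter on active genes 0 members were up and 3 down, beside 406 up and 591 down of all 20642 genes. At an unadjusted p under 0.05, 7 members were up and 5 down. The cause was not tested. With the cutoff on reads scaled to 10000000, *Idi1*, *Sqle* and *Nsdhl* were not tested. Of the other members 5 were up and 5 down, beside 1006 and 1265 of 11103 genes. Calling by the adjusted p alone gave 10 members up and 8 down, beside 17% and 22.1% of all active genes.

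Of all active genes, 3282 were called up and 280 down in promoter-proximal regions, and 1772 and 177 with the replicate block. Without the filter, 0 of 20642 genes were called up and 0 down. Promoter-proximal calls of the members, 8 up and 4 down, were 7 and 4 with the replicate block. They were 3 up with each region scaled by median of ratios and 3 up with TMM. Without the filter they were 0 up and 0 down (8 and 2 at an unadjusted p under 0.05). Leaving out a library gave 1 to 10 up and 0 to 3 down. The pausing index was called up for 1421 of all active genes, for 131 with the replicate block and for 2 or 4 with scaling within regions. With pseudocounts of 0.1 and 10 it was called up for 994 and 2388, and with the Cochran-Mantel-Haenszel test for 5850. Pausing index calls of the members, 2 up and 0 down, were 0 up with the replicate block, without the filter and with either scaling within regions. They were 1 up with a pseudocount of 0.1 and 5 up with a pseudocount of 10. With the Cochran-Mantel-Haenszel test, where the replicate block enters as strata, they were 11 up and 2 down. Leaving out a library gave 0 to 7 up and 0 down. A crossed pairing of the libraries, added after the data were seen, gave 8 up and 5 down in gene bodies, 11 and 4 in promoter-proximal regions, and 5 and 1 for the pausing index. Over all active genes, this pairing gave 1330 and 1455, 4861 and 399, and 4121 and 131, in the same order.

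Among single genes, signs changed for members that were not called. In gene bodies *Ggps1* was 0.0138 with median-of-ratios factors (within regions or from gene bodies) and 0.0119 with TMM. In promoter-proximal regions scaled by median of ratios, *Hmgcs1* was -0.13, *Lss* -0.17, *Hsd17b7* -0.29, *Srebf2* -0.0694, *Scap* -0.51, *Insig1* -0.30 and *Npc1* -0.25. With TMM *Srebf2* was -0.0698, and the others were the same to 2 decimals. With a library left out, gene body changes ranged from -0.00963 to 0.0811 for *Mvk*, -0.13 to 0.20 for *Pmvk*, -0.22 to 0.0858 for *Ggps1*, -0.13 to 0.37 for *Lss*, -0.10 to 0.10 for *Lbr*, -0.0868 to 0.20 for *Sc5d* and -0.11 to 0.13 for *Insig1*. Promoter-proximal changes ranged from -0.0112 to 0.81 for *Lss*, -0.12 to 0.67 for *Hsd17b7*, -0.61 to 0.26 for *Sc5d*, -0.82 to 0.40 for *Dhcr7*, -0.21 to 0.30 for *Scap*, -0.0763 to 0.61 for *Insig1* and -0.061 to 0.69 for *Npc1*. Promoter-proximal counts were low for some members, with 6.36 to 36.7 normalized reads per library for *Ebp*.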
